A study of Arabidopsis thaliana with 12 samples.

Results

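The comparison set xrn3-8, an Arabidopsis thaliana line that carries a mutant allele of the exoribonuclease gene XRN3, against the wild type Col-0. It used 3 xrn3-8 and 3 Col-0 libraries of total RNA, 6 of the 12 libraries in the series, and took in all 37184 genes of the count files. Both genotypes were seedlings of 21 days, raised on soil with 16 h of light after 2 days of stratification at 4 °C, a cold treatment all 12 libraries share, and differed by label in the xrn3-8 allele alone. The labels do not say what lesion the allele is, and they give no day, lane or hour of harvest; the series' text calls the libraries biological replicates that were grown and prepared side by side. The other 6 libraries were 3 of the double mutant dxo1-2 xrn3-8 and 3 of the single mutant dxo1-2, mutant in DXO1, another enzyme that acts on RNA 5′ ends. They gave a separate contrast for the same allele, since both of those genotypes carry dxo1-2 and neither shares a library with the main comparison. For XRN3 itself that second contrast was not an equal repeat, as described below.

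XRN3 is a nuclear 5′ to 3′ exoribonuclease, closely related to XRN2, while XRN4 is the cytoplasmic member of the family in plants. Nuclear enzymes of this kind degrade the RNA that is still being made after a transcript has been cleaved at its poly(A) site, a step linked to transcription termination, and they remove spacers of ribosomal RNA precursors and loops of microRNA precursors. The phosphatase SAL1 breaks down 3′-phosphoadenosine 5′-phosphate, a metabolite that inhibits XRN enzymes and serves in plants as a signal of high light and drought. The genes below are ordered from RNA decay factors to the order of genes along the chromosomes and then to the pathways of the leaf.

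Gene counts per library lay between 62884865 and 81494915 in the 6 libraries. Genes with at least 1 count numbered 24783 to 25312 in xrn3-8 and 23554 to 23694 in Col-0. The 1st principal component of the 6 libraries held 67.8% of the variance and separated the genotypes, and the 2nd held 9.84%. Correlations of log2 levels were 0.982 to 0.987 within a genotype and 0.946 to 0.957 between genotypes. Reads outside annotated genes took 8.32 to 11.1% of a file in xrn3-8 and 8.65 to 9.04% in Col-0.

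XRN3 itself was measured at 23.0, 21.6 and 20.1 CPM, the count relative to the scaled library size, in xrn3-8, against 51.8, 52.1 and 51.4 CPM in Col-0. All xrn3-8 values lay below all Col-0 values, and the mean was 21.6 ± 1.49 CPM in xrn3-8 and 51.8 ± 0.375 CPM in Col-0 (SD, n = 3 each). The log2 fold change was −1.26 (SE 0.0764), with an adjusted p of 8.37e-08 by edgeR's quasi-likelihood test. The gene remained transcribed in the mutant, with 1416, 1684 and 1518 counts. Its closest relative XRN2 lay at 69.8 ± 1.43 CPM in xrn3-8 and 73.8 ± 2.94 CPM in Col-0, and XRN4 at 36.3 ± 2.42 and 34.3 ± 1.25 CPM in xrn3-8 and Col-0. Neither passed the test (adjusted p = 0.420 for XRN2 and 0.435 for XRN4).

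Of 21974 genes with enough counts to test, 7566 changed at an adjusted p under 0.05, which is 34.4% of them. There were 3585 genes higher in xrn3-8 (16.3% of all tested) and 3981 lower (18.1%). Most changes were small: the median absolute log2 change among the called genes was 0.64, and 2229 genes changed at least 2-fold, 1292 higher and 937 lower. The balance of directions depended on scaling, with 4613 higher and 3153 lower calls under upper quartile scaling, which moved the median of all genes by 0.07. Counts for gene lists below are to be read against these shares. Each library is a bulk of whole seedlings, so fewer cells of a type and less RNA per cell cannot be told apart.

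Among 13 nucleases and decapping factors that act at RNA 5′ ends, 3 rose and 2 fell, XRN3 being 1 of the 2. SAL1 was at 40.8, 45.2 and 42.3 CPM in xrn3-8, against 68.9, 66.2 and 66.1 CPM in Col-0. All xrn3-8 libraries were below all Col-0 libraries, and the log2 fold change was −0.65 (SE 0.0792, adjusted p = 2.74e-05, edgeR). VCS, the scaffold of the decapping complex, was at 94.1, 74.0 and 79.1 CPM in xrn3-8, against 48.9 to 52.0 CPM in the 3 Col-0 libraries, a rise of 0.71 on the log2 scale. The decapping activator DCP5 rose by 0.44 and AT1G79090, annotated as a topoisomerase II-associated protein, by 0.31. The decapping enzyme DCP2 and its partner DCP1 were at −0.01 and 0.11 and were not called. AT4G17620, the gene of DXO1, was at 9.91 ± 0.420 CPM in xrn3-8 and 8.82 ± 0.172 CPM in Col-0 and was not called (adjusted p = 0.238).

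Of 18 cleavage, polyadenylation and termination factors, 4 rose and none fell, with a median log2 fold change of 0.17, against −0.00 over all genes tested. FPA and FY, which promote proximal cleavage of the FLC antisense transcript, rose by 0.36 and 0.49. FY was at 7.86, 7.79 and 7.23 CPM in xrn3-8, against 5.14, 5.18 and 5.99 CPM in Col-0, with no overlap. CPSF160 and ESP4 were at 0.22 and 0.21. CPSF160 lost the call without xrn3-8 replicate 1 or Col-0 replicate 1 or 2 (adjusted p up to 0.0826), and ESP4 without any of 4 libraries, xrn3-8 replicates 1 and 3 and Col-0 replicates 2 and 3 (up to 0.128). Upper quartile scaling called 7 of the 18 higher, and the fit without xrn3-8 replicate 1 called 2.

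Of 17 genes of small RNA pathways, 6 rose and 1 fell, with a median of 0.20. AGO1, which holds most microRNAs, was at 88.7, 80.8 and 83.7 CPM in xrn3-8, against 60.8, 63.2 and 63.3 CPM in Col-0. All 3 xrn3-8 libraries were above Col-0, and the log2 fold change was 0.43 (adjusted p = 0.00174, edgeR). DCL2, a Dicer enzyme of antiviral silencing, rose by 0.51, and the RNA-dependent RNA polymerase RDR2 by 0.58. The microRNA-processing Dicer DCL1 was at 39.6 ± 4.63 CPM in xrn3-8 and 37.2 ± 2.68 CPM in Col-0 and was not called, nor was AGO4 at 0.03. Among 15 exosome and nucleolar genes, 3 rose and 2 fell, shares close to those of all genes, with a median of −0.04 that turned to 0.04 under upper quartile scaling. Without Col-0 replicate 1 or 3, 1 fell. NUC2, a nucleolin gene, fell to 1.51, 1.12 and 2.15 CPM in xrn3-8, against 7.13, 3.91 and 5.32 CPM in Col-0 (log2 −1.77, SE 0.258), while NUC1 rose by 0.36. MTR4, a helicase of the nuclear exosome, was at 0.08 and was not called. The related helicase HEN2 was at 0.24 and lost its call without xrn3-8 replicate 1 or 2 or Col-0 replicate 3 (adjusted p up to 0.0616).

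Genes that lie just downstream of another gene on the same strand, here called tandem, rose more often than genes whose 5′ neighbour lies on the other strand, called divergent. Order and strand came from the RefSeq annotation. Of 11695 tandem genes tested, 2238 rose (19.1%) and 2065 fell (17.7%), while of 10047 divergent genes 1341 rose (13.3%) and 1912 fell (19.0%). The neighbour on the 3′ side made less difference, with 16.7% higher among genes followed by a tandem neighbour and 16.1% among genes followed by a convergent one.

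Within the tandem genes the share that rose grew with the Col-0 level of the upstream gene. With the genes cut into 4 equal bins of that level, lowest to highest, it was 15.4, 16.0, 18.7 and 26.4%, the last being 772 of 2924 genes below a neighbour of at least 16.6 CPM. Divergent genes showed no such order, with 14.5, 12.7, 12.6 and 13.6%. The slope was steeper among scarce genes, those in the lowest of 4 bins of their own mean level over the 6 libraries, at most 1.83 CPM. Their tandem shares were 16.6, 16.7, 27.3 and 42.8%, and the last group, 320 of 747 genes, had a median log2 fold change of 0.93. Divergent genes of the same low level gave 16.0, 12.6, 12.1 and 10.1%. Of the 747 genes, 112 had at most 3 counts in every Col-0 library. Such a gene could pass the filter through xrn3-8 and had then to be higher there, so these shares and the median are partly set by which genes were tested.

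In a further setting the tested genes were kept only if they reached 10 counts in at least 3 of the 6 dxo1-2 and dxo1-2 xrn3-8 libraries, and were ranked by their own level there. With this setting, chosen after seeing the data, the tandem shares were 14.98, 15.3, 16.9 and 23.62% and the divergent ones 14.3, 12.6, 12.5 and 13.7%. Among the scarce genes of this ranking 35.3% of 669 tandem genes below a neighbour in the top bin rose, with a median log2 fold change of 0.55, and 10.4% of 482 divergent ones. The bins above were cut on CPM, which is not divided by gene length. With the neighbour's and the gene's own level per kilobase of exon, a setting chosen after seeing the data, the tandem shares were 15.4, 16.6, 19.0 and 25.6%, and 44.2% of 738 scarce tandem genes below a neighbour in the top bin rose, against 13.9% of 510 divergent ones. The scarce genes here were again tested partly through xrn3-8. The counts are descriptions over genes, which are not independent replicates.

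**Figure D1:**
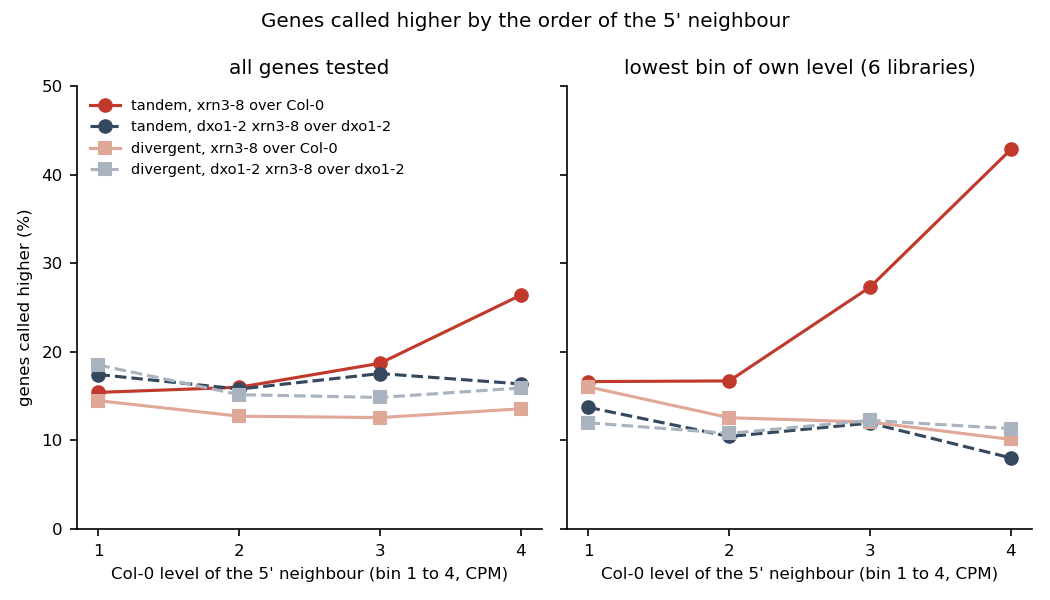
Percent of genes called higher by bin (1 to 4) of the Col-0 level (CPM) of the nearest gene on the 5′ side, for all genes tested (left) and for genes in the lowest bin of their own mean level over the 6 libraries (right). Circles are tandem and squares divergent neighbours, solid lines xrn3-8 over Col-0 and dashed lines dxo1-2 xrn3-8 over dxo1-2. The solid tandem line climbs to 26.4% on the left and 42.8% on the right, and the highest point of any other line is 18.5%.

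At the far end of this pattern stood 78 genes with at most 3 counts in every Col-0 library and at least 30 in every xrn3-8 library. They were picked by these counts, so the counts are a description, with no test. The reverse pattern held for 1 gene, AT2G13547. Among the 78 were 63 protein-coding genes, 11 pseudogenes and 4 long non-coding RNAs, and 29 had no count at all in Col-0. Their mean level in xrn3-8 ranged from 0.487 to 7.17 CPM, with a median of 0.961. The rule did not use gene order, and 73 of the 78 (93.6%) lay in tandem below their 5′ neighbour, against 53.2% of the other 14134 genes that were near silent in Col-0 and 53.4% of all 36899 nuclear genes. For the 73 in tandem, the upstream neighbour's median Col-0 level was 14.4 CPM. It was 0 CPM for the 7514 tandem genes among the other near-silent ones, and 0.760 CPM for all 19702 tandem nuclear genes. The sets differed in gene type too, with 6144 protein-coding genes among the other 14134. Over all 78, the 5′ neighbour itself was called higher in 27 cases and lower in 12. In 4 cases it was itself 1 of the 78, chosen for being higher. Of all genes tested, 16.3% were higher and 18.1% lower.

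The pseudogene AT2G06860 had 468, 492 and 575 counts in xrn3-8, against 0, 1 and 0 in Col-0. It lies below XTH4, a cell wall transglucosylase, which was at 175, 189 and 194 CPM in xrn3-8 and at 169, 189 and 199 CPM in Col-0. The upstream libraries of the genotypes overlapped (log2 0.00, SE 0.0871), while the downstream gene had 1 count in all Col-0 libraries together. NUDT24, a nudix hydrolase gene below its paralogue NUDT20, had 319, 253 and 236 counts in xrn3-8, against 1 in each Col-0 library. NUDT20 was at 14.5 ± 0.846 CPM in xrn3-8 and 14.1 ± 0.525 CPM in Col-0. AT4G25090, a riboflavin synthase-like gene below the iron superoxide dismutase FSD1, had 269, 178 and 347 counts in xrn3-8, against 0, 2 and 0 in Col-0. FSD1 was itself higher in xrn3-8, by 0.51 on the log2 scale. The beta-galactosidase gene BGAL14, below FP6, had 206, 218 and 224 counts in xrn3-8, against 0, 1 and 0 in Col-0, and FP6 was higher by 0.70. Counts this low in Col-0 set no fold change. Of the 78 genes, 8 overlap a gene on the other strand, and whether the authors counted by strand is not given in the sources used here.

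The gene AT2G41445, also in that set, is part of a run of 4 neighbours on 1 strand below ERD15, a dehydration-responsive gene. ERD15 was at 410, 522 and 438 CPM in xrn3-8, against 544, 637 and 569 CPM in Col-0, with no overlap (log2 −0.35, adjusted p = 0.0343, edgeR). Its call was lost without Col-0 replicate 2 or 3 or xrn3-8 replicate 1 or 3 (adjusted p up to 0.148). AT2G41440, annotated as an agamous-like MADS-box protein, was at 20.6, 16.3 and 20.9 CPM in xrn3-8, against 1.52, 1.55 and 1.56 CPM in Col-0. The next gene, AT2G41445, was at 8.41, 4.48 and 6.63 CPM in xrn3-8, with 0, 0 and 1 counts in Col-0. It was followed by AT2G41450, an N-acetyltransferase gene, at 12.5, 9.42 and 15.2 CPM in xrn3-8, against 1.51, 1.4 and 0.907 CPM in Col-0, and by AT2G41451, a glycosyltransferase-like gene, at 3.03, 1.78 and 3.09 CPM in xrn3-8 with 1 or 2 counts in each Col-0 library. All 4 were higher in every xrn3-8 library than in any Col-0 library, and xrn3-8 replicate 2 was the lowest of the 3 in each. Such runs of at least 3 consecutive genes on 1 strand, each called with a log2 fold change of at least 2, occurred in 3 other places: below AT4G33865, below SYTA and below AT2G11270. AT4G33850, in the middle of the 1st of these, had no count in Col-0 and lay at 1.90, 0.847 and 1.72 CPM in xrn3-8. SYTA, a synaptotagmin, was at 107 ± 5.68 CPM in xrn3-8 and 97.9 ± 3.02 CPM in Col-0 and was not called, while the 3 genes below it had no count in any Col-0 library.

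**Figure D2:**
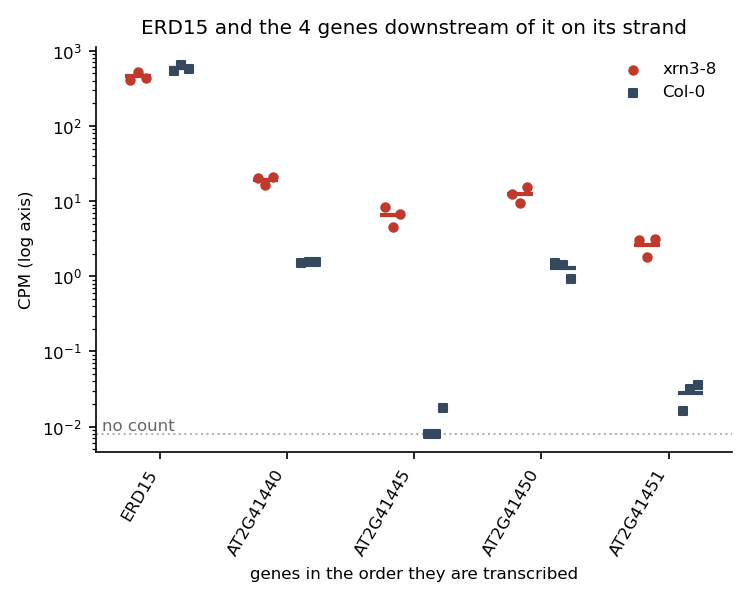
CPM of each library (points, log axis) and means (bars) for ERD15 and the 4 genes that follow it on its strand, xrn3-8 left of Col-0. Values are not divided by gene length, and points on the dotted line had no count. ERD15 is slightly lower in xrn3-8, and the 4 downstream genes are higher in every xrn3-8 library than in any Col-0 library.

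Gene types differed in the direction of the calls, but were not compared at equal level. Of 20583 protein-coding genes tested, 3374 rose (16.4%) and 3913 fell (19.0%). Of 485 long non-coding RNAs, 87 rose (17.9%) and 22 fell (4.54%), with a median log2 fold change of 0.29. Over all genes tested, 16.3% rose and 18.1% fell. Of 252 pseudogenes, 71 rose (28.2%) and 22 fell (8.73%), with the same median of 0.29. Among scarce nuclear genes of any type, at most 1.83 CPM over the 6 libraries, 20.2% rose and 6.77% fell, with a median of 0.26. Such genes could be tested partly through xrn3-8, as said above. The part of level in the differences between types was not tested. Small nuclear RNA genes that passed the filter numbered 12, of which 4 rose and none fell. Of 187 small nucleolar RNA genes, 2 rose and none fell, and of 12 transfer RNA genes none was called.

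The largest rises by fold, among genes with a mean of at least 5 CPM, were led by the pseudogene AT5G35935. It was at 20.7, 17.5 and 18.6 CPM in xrn3-8, against 0.295, 0.622 and 0.267 CPM in Col-0, a log2 fold change of 5.56 (SE 0.263, adjusted p = 8.62e-09, edgeR). Its 5′ neighbour is divergent. MRD1, a gene named for its response in a methionine overproducer, was at 19.0, 16.0 and 16.5 CPM in xrn3-8, against 1.01, 0.574 and 0.800 CPM in Col-0 (log2 4.43). CWLP, a cell wall to plasma membrane linker protein, was at 118, 133 and 95.6 CPM in xrn3-8, against 9.36, 13.6 and 13.5 CPM in Col-0 (log2 3.25). DOX1, a fatty acid alpha-dioxygenase of the oxylipin pathway, was at 39.3, 26.2 and 35.7 CPM in xrn3-8, against 8.49, 1.12 and 2.35 CPM in Col-0 (log2 3.08). TAF4B, a subunit of a general transcription factor, was at 16.7, 8.93 and 18.0 CPM in xrn3-8, against 0.998, 1.28 and 2.03 CPM in Col-0, and lies in tandem below the stress regulator ZAT10. Genes whose xrn3-8 and Col-0 libraries overlapped were left out of this ranking, so the lack of overlap in these 5 genes was set by the rule. The other 7 of the 12 largest rises were AT2G41440 and AT2G41450 of the run above and the clock and clock output genes AT1G07050, COR27, AT4G33980, FKF1 and COL9. A tandem 5′ neighbour stood before 9 of these 12 genes, and before 53.4% of all 36899 nuclear genes. AT2G41440 and AT2G41450, among the 9, belong to the same run.

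The 12 largest falls held clock genes (COL2, RVE8, LNK3 and CCA1) and other regulators. HYH, the homologue of the light-signalling factor HY5, was at 1.71, 1.55 and 2.39 CPM in xrn3-8, against 10.8, 8.33 and 12.6 CPM in Col-0 (log2 −2.48, SE 0.184). The zinc finger gene ZAT11 fell by 2.48 on the log2 scale, the B-box gene BBX16 by 2.44, the EF-hand gene AT3G29000 by 2.41 and AT1G22690, of a gibberellin-regulated family, by 2.49. The long non-coding RNA AT3G06655 fell by 2.55, and AT1G65490, annotated as an uncharacterized protein, by 2.63. Here too, genes that overlapped between xrn3-8 and Col-0 were left out by the rule of choice. The plastid gene ATCG00950 had the lowest fold change, −4.20, which rested on Col-0 replicate 2: it was at 0.651, 0.667 and 0.304 CPM in xrn3-8, against 1.06, 26.8 and 1.81 CPM in Col-0. Without that library it was at −1.4 and was not called (adjusted p = 0.0727).

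By counts, the largest rises among called nuclear genes with no overlap between the genotypes were those of MEE14, GLT1, AT5G40450, THI1, PORB and SEX1. MEE14, named for an arrest of embryos in its mutant, was at 308, 477 and 366 CPM in xrn3-8, against 137, 164 and 139 CPM in Col-0 (log2 1.39, adjusted p = 2.88e-05, edgeR). GLT1, the NADH-dependent glutamate synthase, was at 447, 344 and 388 CPM in xrn3-8, against 186, 209 and 206 CPM in Col-0 (log2 0.97). SEX1, the glucan water dikinase that starts starch breakdown, was at 353, 363 and 324 CPM in xrn3-8, against 202, 216 and 173 CPM in Col-0 (log2 0.82). AT5G40450, the thiamine synthesis gene THI1 and the protochlorophyllide oxidoreductase PORB rose by 0.59, 0.38 and 0.32, and each lost its call without Col-0 replicate 3 (adjusted p = 0.0581, 0.0622 and 0.120). THI1 lost it also without xrn3-8 replicate 1, and PORB without Col-0 replicate 1 or xrn3-8 replicate 2 or 3. The 6 largest falls by counts were the antenna genes LHCB3, LHCB5 and LHCA4, the Rubisco small subunit genes RBCS1A and RBCS3B, and RCA.

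The circadian clock of Arabidopsis is a loop in which morning factors of the CCA1 and LHY family repress evening genes such as TOC1, and the evening genes repress the morning ones. Morning genes were lower in xrn3-8 and evening genes higher. Of 15 morning genes, 12 fell and none rose, with a median log2 fold change of −1.92. CCA1 was at 12.7, 13.4 and 11.2 CPM in xrn3-8, against 68.2, 54.4 and 70.3 CPM in Col-0 (log2 −2.37, SE 0.127, adjusted p = 2.92e-08, edgeR). LHY was at 7.08 ± 0.608 CPM in xrn3-8, against 36.1 ± 5.98 CPM in Col-0 (log2 −2.35). The genotypes did not overlap in either of these MYB factors. RVE8, a related factor that activates evening genes, was at 2.42, 3.58 and 2.02 CPM in xrn3-8, against 19.2, 14.6 and 23.1 CPM in Col-0 (log2 −2.82), and its relatives RVE1 and RVE4 fell by 1.92 and 1.13. Its coactivators fell too: LNK2 was at 39.6, 44.4 and 34.4 CPM in xrn3-8, against 139, 143 and 169 CPM in Col-0 (log2 −1.93), and LNK1, LNK3 and LNK4 fell by 1.24, 2.66 and 1.92. Of the day-phase repressors, PRR9 was at 3.98, 3.34 and 4.68 CPM in xrn3-8, against 21.8, 17.8 and 17.1 CPM in Col-0 (log2 −2.24). PRR7 was at 86.0, 95.5 and 74.7 CPM in xrn3-8 and at 90.9, 95.0 and 83.7 CPM in Col-0, and these libraries overlapped. RVE2 and ASG4 were likewise not called.

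Of 12 evening genes, 9 rose and 1 fell, with a median of 1.15. TOC1 was at 81.2, 84.2 and 87.2 CPM in xrn3-8, against 31.5, 32.5 and 32.5 CPM in Col-0 (log2 1.39, SE 0.0859, adjusted p = 9.58e-08, edgeR). GI, which stabilises clock proteins, was at 87.2, 86.3 and 81.6 CPM in xrn3-8, against 49.2, 49.4 and 40.8 CPM in Col-0 (log2 0.87). The evening complex is formed by ELF3, ELF4 and LUX. LUX was at 29.0, 24.7 and 25.6 CPM in xrn3-8, against 6.46, 7.86 and 5.48 CPM in Col-0 (log2 2.00), and ELF3 rose by 0.90. ELF4 was at 1.48, 1.66 and 1.61 CPM in xrn3-8, against 0.0655, 0 and 0.0178 CPM in Col-0. The evening complex genes were all higher in every xrn3-8 library. The repressor PRR3 was at 15.5, 15.2 and 17.8 CPM in xrn3-8, against 2.85, 3.44 and 3.01 CPM in Col-0 (log2 2.38), and PRR5 rose by 0.64. The light-sensing F-box gene FKF1 was at 24.9, 21.5 and 21.5 CPM in xrn3-8, against 2.42, 2.42 and 1.62 CPM in Col-0 (log2 3.39). Its relatives ZTL and LKP2 were at −0.26 and −0.37 and were not called. CHE, a TCP factor that represses CCA1, was the 1 evening gene that fell, by 0.49. Without xrn3-8 replicate 1, 3 evening genes were lower, and without Col-0 replicate 1, 2 were.

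Clock output regulators all passed the test, 7 higher and 8 lower of 15. With 1 library left out, 6 or 7 were higher and 6 to 8 lower, the fewest without Col-0 replicate 2. COR27, a clock and cold regulator, was at 33.2, 39.2 and 33.3 CPM in xrn3-8, against 1.59, 1.74 and 1.3 CPM in Col-0 (log2 4.51, SE 0.328, adjusted p = 3.45e-07, edgeR). The CCT motif gene AT1G07050 was at 35.2, 48.4 and 48.0 CPM in xrn3-8, against 2.19, 1.90 and 1.55 CPM in Col-0 (log2 4.54). GRP7, an RNA-binding protein with an evening peak, was at 99.6, 77.3 and 79.7 CPM in xrn3-8, against 12.6, 19.1 and 16.6 CPM in Col-0 (log2 2.41), and its relative GRP8 rose by 1.29. Members of the CONSTANS-like family moved in both directions. COL9 was at 53.2, 52.8 and 53.0 CPM in xrn3-8, against 7.40, 6.20 and 6.31 CPM in Col-0 (log2 3.00). COL2 was at 1.56, 1.73 and 1.69 CPM in xrn3-8, against 15.6, 12.9 and 17.5 CPM in Col-0 (log2 −3.20), and COL1 fell by 1.36. The morning-expressed repressors of CO, CDF1, CDF2 and CDF3, fell by 1.91, 1.28 and 1.02. Levels of these genes swing with the hour of the day; the hour of harvest is not given in the sources used here, and a shift in harvest time or clock phase and a change of level at 1 phase cannot be told apart from 1 time point.

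**Figure D3:**
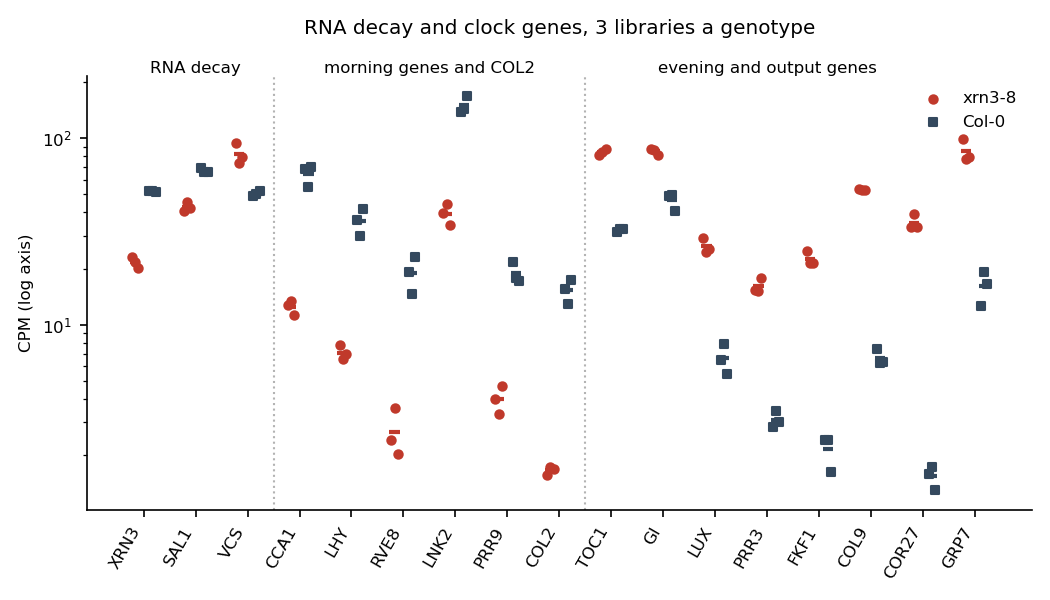
CPM of each library (points, log axis) and group means (bars) for 17 genes, xrn3-8 as red circles left of Col-0 as dark squares. XRN3, SAL1 and the morning genes lie lower in xrn3-8, and VCS and the evening and output genes lie higher, with no overlap between genotypes in any of the 17.

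Nuclear photosynthesis genes were lower as a body. Of 21 light-harvesting antenna genes, 17 fell and none rose, with a median of −0.70. With 1 library left out, 14 to 19 fell and none rose. Of all nuclear genes in the top bin of their own level, at least 22.0 CPM, 32.5% fell and 13.5% rose. LHCB2.3 was at 260, 252 and 212 CPM in xrn3-8, against 651, 712 and 620 CPM in Col-0 (log2 −1.45, SE 0.124, adjusted p = 1.26e-06, edgeR). LHCB3 was at 1316, 1235 and 1133 CPM in xrn3-8, against 2440, 2809 and 2443 CPM in Col-0 (log2 −1.06), and LHCB2.1 fell by 1.16. In both photosystem II antenna genes the genotypes did not overlap. The photosystem I antenna gene LHCA1 fell by 0.90. LHCB1.3, the most counted antenna gene here, was at 5496, 3395 and 3866 CPM in xrn3-8 and at 4095, 5098 and 4949 CPM in Col-0 and was not called, with xrn3-8 replicate 1 above all Col-0 libraries. LHCB1.5, LHCB4.1 and LHCB4.3 were not called either. The LHCB1 copies are near identical, and the files count reads with several alignments on a line of their own, apart from the genes.

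Of 25 photosystem and Rubisco small subunit genes, 22 fell and none rose, with a median of −0.63. With 1 library left out, 16 to 24 fell, the fewest without Col-0 replicate 2, and none rose. PSAN and PSAO, subunits of photosystem I, fell by 0.95 and 0.82. RBCS2B was at 384, 365 and 346 CPM in xrn3-8, against 635, 685 and 730 CPM in Col-0 (log2 −0.91), and RBCS3B fell by 0.83. RBCS1A fell by 0.40 and lost its call without Col-0 replicate 2 (adjusted p = 0.0686) or xrn3-8 replicate 3. RCA, the activase of Rubisco, was at 1119, 953 and 962 CPM in xrn3-8, against 1866, 2023 and 2025 CPM in Col-0 (log2 −0.96, SE 0.155). PSAD1, PSAL and PSBO1 were not called. None of 6 leaf cell markers (epidermis, guard cell, trichome and phloem genes) changed, and their summed level was 124 to 144 CPM in xrn3-8 and 129 to 137 CPM in Col-0.

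Plastid genomes are transcribed apart from the nucleus, and plastid-encoded genes took 51.0, 53.5 and 49.0% of gene counts in xrn3-8, against 51.6, 51.6 and 50.8% in Col-0. The shares overlapped, at 51.2 ± 2.22% in xrn3-8 and 51.3 ± 0.465% in Col-0 (exact two-sided permutation test, p = 1, n = 3 each). Of 124 plastid-encoded genes tested, none rose and 4 fell, with a median of −0.12. These counts moved with single libraries: without xrn3-8 replicate 2 there were 2 higher and 13 lower, without xrn3-8 replicate 3 2 and 1, without Col-0 replicate 2 1 and 1, and without xrn3-8 replicate 1 none and 2. Mitochondrion-encoded genes took 0.759, 0.719 and 0.765% of counts in xrn3-8, against 0.604, 0.592 and 0.618% in Col-0. Every xrn3-8 library was above Col-0, at 0.748 ± 0.0254% against 0.605 ± 0.0130%, with an exact permutation p of 0.1, which is the smallest that 3 against 3 allows, and 0.2 after adjustment over the 2 shares tested. Of 103 mitochondrion-encoded genes, 6 rose and none fell. The count was 2 without xrn3-8 replicate 1, 12 with DESeq2 and 18 under upper quartile scaling.

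Most defence genes of the salicylic acid pathway were lower in xrn3-8. Of 20, 14 fell and none rose, with a median of −0.61. With 1 library left out, 12 to 14 fell, and 1 rose without xrn3-8 replicate 2 or Col-0 replicate 1. Upper quartile scaling, nuclear genes alone, no count filter and a replicate block also gave 1 rise each. EDS1, a lipase-like hub of immune signalling, was at 66.4, 67.5 and 65.5 CPM in xrn3-8, against 142, 151 and 145 CPM in Col-0 (log2 −1.14, SE 0.0826, adjusted p = 3.45e-07, edgeR). Its partner PAD4 fell by 0.92, and the transcription factors CBP60G and SARD1, which drive salicylic acid synthesis, fell by 1.24 and 0.68. WRKY54 and WRKY70 fell by 1.58 and 1.02, and NPR1, a salicylic acid receptor, by 0.49. The late marker PR1 was at 178, 63.3 and 123 CPM in xrn3-8 and at 99.5, 43.0 and 46.9 CPM in Col-0, and was not called (adjusted p = 0.0535). Its log2 fold change was 0.56 to 1.44 over the alternatives, the other way from the list. PR2 and PR5 were not called either, and xrn3-8 replicate 2 was the lowest xrn3-8 library in all 3 PR genes.

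Jasmonate genes fell likewise. Of 20, 13 fell and 1 rose, with a median of −1.15. The lipoxygenase gene LOX3 was at 48.2, 33.2 and 42.9 CPM in xrn3-8, against 143, 215 and 214 CPM in Col-0 (log2 −2.20, SE 0.236, adjusted p = 8.84e-06, edgeR). The lipoxygenase gene LOX4 fell by 2.1, and the cyclase AOC3 and the reductase OPR3, later steps of the same synthesis, fell by 1.86 and 1.77. The repressor gene JAZ9 was at 76.5, 75.1 and 80.1 CPM in xrn3-8, against 287, 260 and 321 CPM in Col-0 (log2 −1.91), and the transcription factor MYC2 fell by 1.27. LOX2, VSP2 and PDF1.2 were not called. ORA47, an AP2/ERF factor that activates jasmonate synthesis genes, was at 13.0, 5.20 and 15.1 CPM in xrn3-8, against 5.78, 4.78 and 5.94 CPM in Col-0 (log2 1.01), the 1 rise, a call lost without xrn3-8 replicate 1 or 3 or Col-0 replicate 2 (adjusted p up to 0.112).

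Aliphatic glucosinolates are sulphur-rich defence compounds made from methionine. Of 17 genes of their synthesis, 16 fell and none rose, with a median of −0.84. The sulphotransferase SOT17 was at 22.0, 18.9 and 20.9 CPM in xrn3-8, against 54.0, 52.1 and 63.4 CPM in Col-0 (log2 −1.46, SE 0.0911, adjusted p = 1.09e-07, edgeR). The aminotransferase BCAT4, which starts chain elongation, fell by 1.01, the core-structure enzyme CYP79F1 by 0.68 and the regulator MYB29 by 0.85. The other main regulator, MYB28, was at 22.7, 18.4 and 22.7 CPM in xrn3-8 and at 21.6, 24.1 and 25.2 CPM in Col-0, and was not called.

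Of 10 genes studied with the signal that SAL1 degrades, 4 rose and 1 fell, with a median of 0.28. Without xrn3-8 replicate 1, 4 rose and 3 fell with a median of 0.03, and without xrn3-8 replicate 3, 2 fell. APX2, an ascorbate peroxidase induced by high light, was at 1.98, 1.59 and 1.86 CPM in xrn3-8 and had no count in Col-0. It is also 1 of the 78 genes near silent in Col-0 and lies in tandem below a ribosomal protein gene, AT3G09630. ELIP1, an early light-induced protein, was at 15.3, 13.5 and 12.2 CPM in xrn3-8, against 6.20, 3.96 and 3.04 CPM in Col-0 (log2 1.63). RD29A, a drought and cold gene, was at 202, 184 and 116 CPM in xrn3-8, against 47.2, 49.7 and 40.8 CPM in Col-0 (log2 1.87, SE 0.241), and the drought factor DREB2A rose by 1.33. ERF6 was at 14.2, 8.48 and 11.2 CPM in xrn3-8, against 36.0, 32.3 and 31.3 CPM in Col-0 (log2 −1.56). ZAT10 was at 39.6, 19.0 and 36.7 CPM in xrn3-8 and at 45.0, 50.1 and 39.8 CPM in Col-0 and was not called, nor were ZAT12, RRTF1, ELIP2 and HSFA2.

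Of 17 cold and abscisic acid protective genes, 10 rose and 1 fell, with a median of 0.84. The rises numbered 7 without xrn3-8 replicate 1 or Col-0 replicate 1 or 3, and 8 without xrn3-8 replicate 2 or 3. They stayed at 10 without Col-0 replicate 2. COR15A, a chloroplast protein that protects membranes in the cold, was at 176, 204 and 141 CPM in xrn3-8, against 58.9, 68.7 and 51.4 CPM in Col-0 (log2 1.54, SE 0.157, adjusted p = 5.52e-06, edgeR). COR15B rose by 1.85, KIN1 by 2.66, KIN2 by 0.83 and the alcohol dehydrogenase ADH1 by 1.59. The dehydrin gene ERD14 was the 1 that fell, by 0.47, a call lost without Col-0 replicate 3 (adjusted p = 0.0521). RD29B, RAB18 and LEA14 were not called. Of 13 flavonoid genes, 5 rose and 2 fell: the anthocyanin enzymes DFR, LDOX and F3'H rose by 1.33, 0.97 and 1.5, with UF3GT and the regulator TT8, while FLS1 and MYB75 were at −0.59 and −0.96. FLS1 lost its call without Col-0 replicate 1 (adjusted p = 0.0560), and MYB75 without Col-0 replicate 1 or 3 or xrn3-8 replicate 1 or 3 (up to 0.119). DFR was at 29.5, 30.5 and 29.2 CPM in xrn3-8, against 11.5, 8.07 and 15.9 CPM in Col-0. CHS, the enzyme at the start of the pathway, was not called.

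Of 12 genes of darkness and sugar starvation, 3 rose and 3 fell. DIN2, DIN10 and BCAT2 rose by 2.37, 1.12 and 0.86. DIN1 was at 50.6, 52.2 and 52.0 CPM in xrn3-8, against 99.1, 79.8 and 118 CPM in Col-0 (log2 −0.94). DIN6 and DIN9 were at −0.62 and −0.64. DIN6 lost its call without any single library but Col-0 replicate 1 (adjusted p up to 0.135), and DIN9 without Col-0 replicate 1 or 3 or xrn3-8 replicate 2 or 3 (up to 0.299). Of 7 heat shock genes tested, HSP101 was at 0.59, a call lost without xrn3-8 replicate 1 (adjusted p = 0.0542), and MBF1C fell by 0.71. Flowering genes gave 2 rises and 4 falls among 17. FD, the partner of the florigen, rose by 1.25, and SPL3, a promoter of flowering with age, fell by 0.92. FT and SOC1 were at −0.81 and −0.39 and were not called. The repressor FLC was at 3.63, 3.57 and 5.10 CPM in xrn3-8, against 2.13, 2.19 and 2.45 CPM in Col-0 (log2 0.86), and lost its call without xrn3-8 replicate 3 or Col-0 replicate 1 or 2 (adjusted p up to 0.118).

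**Figure D4:**
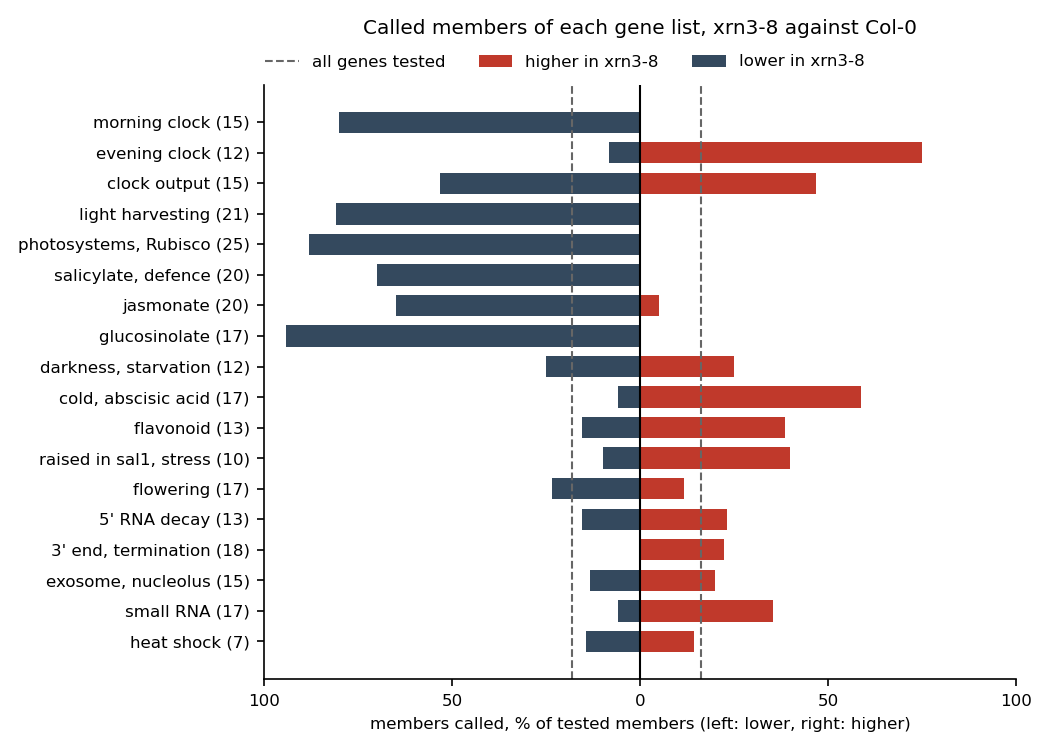
Percent of the tested members of 18 gene lists (number in brackets) called higher (red, right) or lower (dark, left) in xrn3-8 against Col-0, with dashed lines at the shares of all genes tested, 16.3% and 18.1%. Morning clock, antenna, photosystem, defence, jasmonate and glucosinolate genes fall mainly to the left, and evening clock and cold genes to the right.

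Markers of other organs were scarce. Of 10 root genes, 1 was tested, the iron reductase FRO2 at −0.78, a call lost without xrn3-8 replicate 1 or 3 or Col-0 replicate 1 or 2 (adjusted p up to 0.186), and the summed root level was 1.17 to 1.82 CPM in xrn3-8 and 1.4 to 2.16 CPM in Col-0. Pollen genes VGD1 and PPME1 had no count in the 6 libraries. Flower and pollen markers together were at 2.19 to 4.11 CPM in xrn3-8 and 0.916 to 2.13 CPM in Col-0. The difference lay in 1 gene, the petal and stamen factor PI, at 2.68, 1.77 and 3.69 CPM in xrn3-8, against 0.196, 0.128 and 0.267 CPM in Col-0 (log2 3.78), while AP1, AP3, AG, SEP1, SEP2 and SEP3 were not called. Seed storage genes were at 0.0128 to 0.0163 CPM in xrn3-8 and 0.0638 to 4.3 CPM in Col-0, where Col-0 replicate 3 was the highest. The part of these levels in the results above was not tested.

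The same allele was then read in libraries that carry dxo1-2. Whether every plant of the double mutant was homozygous for xrn3-8 is not given in the sources used here and was not tested, and it bears on each value of this contrast and of the interaction. XRN3 was at 38.4, 38.1 and 44.1 CPM in dxo1-2 xrn3-8, against 59.1, 59.6 and 58.3 CPM in dxo1-2, a log2 fold change of −0.55. The fall was smaller than in the wild-type background, with an interaction of 0.71 (adjusted p = 0.000394, edgeR), and the mean was 40.2 ± 3.40 CPM in dxo1-2 xrn3-8 and 21.6 ± 1.49 CPM in xrn3-8, with no overlap. The contrasts below thus set 2 different levels of XRN3 RNA side by side. In this background 6997 genes were called (31.8% of those tested), 3599 higher (16.4%) and 3398 lower (15.5%). Of the 3585 genes higher in xrn3-8 against Col-0, 1230 (34.3%) were also higher in dxo1-2 xrn3-8 against dxo1-2 and 263 were lower there. Of the 3981 lower genes, 1560 (39.2%) were also lower and 420 were higher. The shared calls made up 36.9% of the 7566 genes and 39.9% of the 6997. The interaction passed for 4584 of all genes tested (20.9%), 2918 of them called in xrn3-8 against Col-0.

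Of these 24 extreme genes by fold, 16 were called in the same direction in the dxo1-2 background, 9 of the higher and 7 of the lower, and all 24 had a smaller absolute log2 change there. They had been chosen as extremes in the other contrast, so this ordering is a description. AT5G35935 was higher in xrn3-8 but lower in dxo1-2 xrn3-8 against dxo1-2, by −1.64 on the log2 scale. CWLP and COR27 rose by 3.09 and 3.60 there, and HYH was at −0.05 and was not called.

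Pathways differed in how they carried over. Morning clock genes fell in this background too, 11 of 15 with none higher and a median of −0.90, and evening genes rose, 8 of 12. TOC1 rose by 1.38 in dxo1-2 xrn3-8 over dxo1-2 and by 1.39 in xrn3-8 over Col-0. Antenna genes fell in 20 of 21 cases and photosystem and Rubisco genes in 24 of 25. Cold genes rose in 11 of 17. Glucosinolate genes fell in 4 of 17, against 16 of 17 in the wild-type background, and salicylic acid genes gave 7 rises and 2 falls, against 14 falls. EDS1 was at 0.17 in dxo1-2 xrn3-8 over dxo1-2, with an interaction of 1.31 (adjusted p = 1.27e-05, edgeR). Starvation genes gave 9 rises and no fall, and DIN1, lower in xrn3-8, was higher by 1.58 in dxo1-2 xrn3-8 over dxo1-2.

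The order of neighbours made little difference in that contrast. Tandem genes were called higher in 17.4, 15.8, 17.6 and 16.4% of cases from the lowest to the highest bin of the upstream level. Of the scarce genes below a tandem neighbour in the top bin 8.03% rose, and of the divergent ones 11.3%. These are the same scarce genes as above, binned by their xrn3-8 and Col-0 level. A gene could be tested through xrn3-8 and have few counts in these libraries. These shares are thus also partly set by which genes were tested. The 78 near-silent genes had a median of 0.106 CPM in dxo1-2 xrn3-8 and 0.0373 CPM in dxo1-2, against 0.961 CPM in xrn3-8, and 3 of them reached 30 counts in every double mutant library. In this contrast, which did not choose them, 23 of the 78 were called higher and 2 lower. Over all genes tested, 16.4% were called higher and 15.5% lower there. The interaction was called negative in 50 of the 78 and positive in none. That term takes in the xrn3-8 and Col-0 counts that chose the genes, so its direction was partly set by the choice. AT2G06860 had 15, 1 and 8 counts in dxo1-2 xrn3-8, against 2, 0 and 0 in dxo1-2. NUDT24 had no count in dxo1-2 xrn3-8, against 11, 4 and 6 in dxo1-2.

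**Figure D5:**
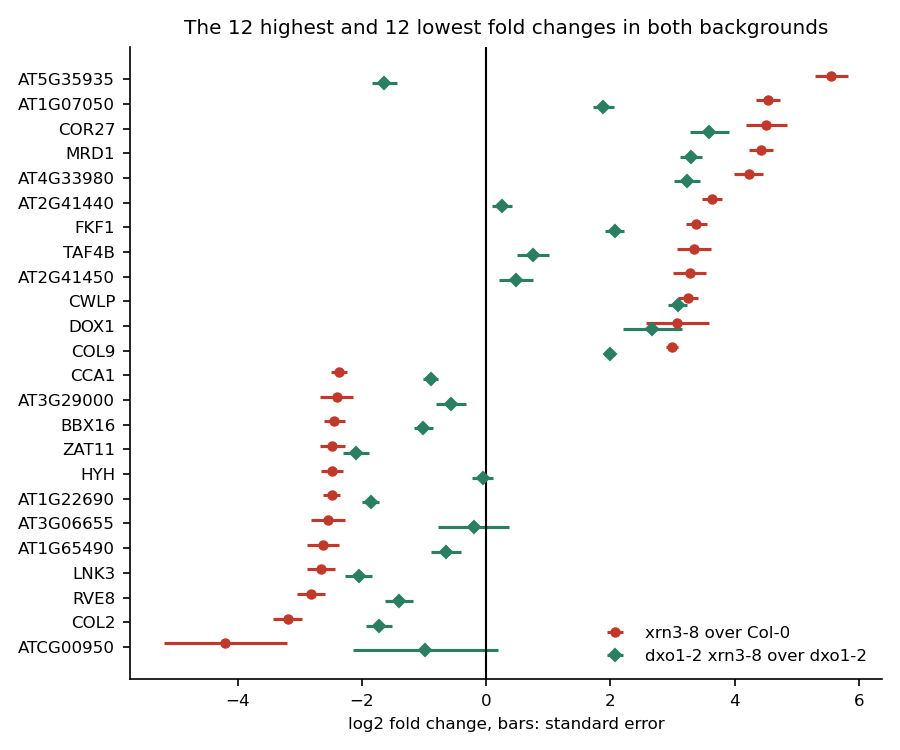
Log2 fold change (points) with its standard error (bars) of the 12 top and 12 bottom genes by fold in xrn3-8 over Col-0 (red circles), beside dxo1-2 xrn3-8 over dxo1-2 (green diamonds). The genes were picked by the red values, and all 24 green values are nearer to 0 in size.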

How the data were processed

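Total RNA of whole seedlings was sequenced after removal of ribosomal RNA with a stranded kit, per the labels' protocols. The authors deposited 1 file of whole-number read counts per gene for each library, with summary lines for reads outside genes. The submitters' processing notes name TAIR10, HISAT2 2.0.4, SAMtools 1.1 and HTSeq 0.6.0; the strand setting is not given in the sources used here. A table of the whole series with 12 columns was not used. Of the 37184 genes, 36899 nuclear IDs matched the RefSeq TAIR10.1 annotation, used for names, types, exon length and gene order only; the builds differ, so no coordinates or sequences are given.

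The 5 summary lines were left out of library sizes and tests. Reads outside genes took 8.32 to 11.1% of a file in xrn3-8 and 8.65 to 9.04% in Col-0, and reads with more than 1 alignment 10.5 to 11.2% in xrn3-8 and 9.80 to 11.0% in Col-0. Counts were scaled by TMM, filtered with filterByExpr (minimum count 10, total 15) and tested in 1 fit of all 12 libraries by edgeR 4.0.16's quasi-likelihood test (R 4.3.3, limma 3.58.1), with Benjamini-Hochberg adjustment over 21974 genes and a threshold of 0.05. All adjusted p-values and calls in the text are from this test. The common biological coefficient of variation was 12.7%. On simulated counts, 98.5% of 200 genes changed by 1.5 on the log2 scale were recovered, and 5.74% of calls were false, over 20995 genes. All 4 genotypes were simulated from the Col-0 means, and only these 200 genes, each at 1 CPM or more in Col-0, were changed in xrn3-8. In the data 34.4% of genes were called, with a median absolute log2 change of 0.64. The simulated rates therefore do not give those of the calls reported here. Shares of counts were compared by an exact permutation test over samples. Replicate libraries differed by more than sampling noise. The labels call them separate samples. The spread behind the edgeR p-values was estimated over all 12 libraries, while the permutation tests used these 3 against 3.

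Named genes were the 12 top and 12 bottom by fold among called genes with a mean of at least 5 CPM, the 6 with the largest rise and fall in CPM, the near-silent genes with the most counts, and members of gene lists. The comparison and the lists were chosen with earlier results of these data known. The 4 bins of level were taken over the genes tested in each class of neighbour. Alternatives covered scaling, filters, DESeq2 1.42.0, the 6 libraries alone, a replicate block, each library left out, other count limits, levels per kilobase of exon, and a filter and gene level from the 6 libraries outside the comparison.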

Additional observations from a re-analysis of the deposited data

Results flagged for a closer look

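The effect of xrn3-8 differed between the wild-type and the dxo1-2 background in 74 of the 188 tested genes named above, by the interaction term of the same edgeR fit at an adjusted p under 0.05. Over all genes tested it passed in 20.9%. Genes named for large changes in xrn3-8 against Col-0 are among the 188. The interaction takes in those same libraries, so the number that passed was partly set by the choice. The values below are the log2 change in dxo1-2 xrn3-8 over dxo1-2 minus that in xrn3-8 over Col-0. A negative value means that the log2 change was lower in the dxo1-2 background, whether as a smaller rise, a larger fall or a change of direction. AT5G35935 is of the last kind, at −1.64 in dxo1-2 xrn3-8 over dxo1-2 and 5.56 in xrn3-8 over Col-0. XRN3 RNA itself differed between the backgrounds, at 40.2 ± 3.4 CPM in dxo1-2 xrn3-8 and 21.6 ± 1.49 CPM in xrn3-8 (SD, n = 3 each), and its part in these differences was not tested.

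The lowest values were those of AT5G35935 −7.20, ORA47 −3.62, AT2G41440 −3.38, AT2G41450 −2.80, AT1G07050 −2.65, TAF4B −2.59, RRTF1 −2.47, ASG4 −1.83 and FLC −1.74. Next in order came FSD1 −1.5, VSP2 −1.35, FKF1 −1.31, LUX −1.15, MRD1 −1.14, DREB2A −1.07, RVE2 −1.04, HSP101 −1.02 and COL9 −1.01. Smaller differences were found for AT4G33980 −1.0, CHS −0.97, GRP7 −0.72, GLT1 −0.70, PORB −0.69, GI −0.62, FY −0.49, AGO4 −0.48 and SEX1 −0.47. Then followed XTH4 −0.44 and ELF3 −0.32.

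The highest values were those of SEP2 4.66, PDF1.2 4.6, DIN1 2.52, HYH 2.43, AT3G06655 2.35, DIN2 2.34, AT1G65490 1.98, LHY 1.93 and AT3G29000 1.84. Next in order came ELIP2 1.79, BCAT2 1.5, CCA1 1.48, PR2 1.48, COL2 1.47, BBX16 1.43, CBP60G 1.43, RVE8 1.41 and SARD1 1.38. Smaller differences were found for PAD4 1.36, EDS1 1.31, NUC2 1.3, SOT17 1.29, LEA14 1.12, LNK2 1.09, JAZ9 1.07, LOX4 1.0 and BCAT4 0.90. Then followed LNK1 0.89, AT4G17620 0.85, NPR1 0.76, COL1 0.76, CYP79F1 0.74, XRN3 0.71, RVE4 0.69, ERD14 0.68 and MYB29 0.68. The list ended with AT1G22690 0.63, LNK4 0.63 and CDF1 0.55.

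In genes with 3 counts or fewer in every library of a group, the fitted difference depends on the prior count and is no measure of size. These values were NUDT24 −13.62, APX2 −9.80, AT4G25090 −9.34, BGAL14 −7.02, AT2G41451 −4.10 and AT2G13547 11.12.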

How the results depend on the processing

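The count of changed genes, 7566, stayed within 1.5 times under every alternative run except the 2-fold limit, which left 2229 genes, 1292 higher and 937 lower. It was 6226 to 6978 with 1 library left out, 7045 with the 6 libraries alone, 8067 with DESeq2 and 7766 under upper quartile scaling, which turned the split to 4613 higher and 3153 lower. Other count limits gave 167 near-silent genes (at most 1 against at least 10 counts) and 24 (at most 10 against at least 100). The percent higher among tandem genes below a top-quarter neighbour was 22.7 to 30.9% over the alternatives. The plastid-encoded share of counts, lower by −0.135 percentage points in xrn3-8 with overlapping libraries, was 0.00801 higher without Col-0 replicate 2 and 0.934 higher without xrn3-8 replicate 3, in a leave-out range of −1.28 to 0.934. Of 211 called genes named or listed, 45 lost their call in at least 1 alternative and no call reversed. The 333 genes named or listed include genes that were not called, and such genes could change sign. DCL1, for example, was at −0.0101 to 0.164 over the alternatives.

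The genotypes share replicate numbers, and same-numbered libraries deviated together with correlations of 0.0622, 0.113 and 0.0842, each the highest for its number, which is a hint from the data only. The fit with a replicate block called 7213 genes, 3383 higher and 3830 lower. Changes of low-count genes are limited by depth.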
